A study of Drosophila melanogaster with 8 samples.

Results

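Fib, nop5, Nop56, hoip, Nop60B, NHP2, Nopp140, bys, Ns1 and pit encode nucleolar proteins that make ribosomes. They were taken by gene name from a table of 13982 genes, all 10 names were found, and all 10 had enough reads to be among the 9986 genes tested. The libraries were made from heads of adult flies, 2 days old, that carried the neuronal driver nSyb-Gal4. In 4 ND-75 knockdown (ND-75 KD) libraries the driver was combined with an RNAi line, HMS00853, against ND-75, the fly homologue of the complex I subunit NDUFS1, and in 4 Control libraries with the w[1118] background. Each library came from 20 heads, 10 male and 10 female, and the replicates are named biological without a statement on separate crosses. The p values below therefore cover the spread among these pools of heads. The comparison asks how a loss of complex I in neurons alters the transcripts of the head. The labels give no Gal80ts for these flies, whereas the study's text and legends name Tub-Gal80ts with the driver for adult flies. The study also describes the RNAi line as leaky, and the Control flies lack it, so knockdown in neurons and outside them cannot be told apart. The study's stock list gives the RNAi line a background other than w[1118], so strain background and knockdown cannot be told apart either. A head also holds glia, photoreceptors, fat body, muscle and hemocytes, and in a bulk library fewer cells of a type and less RNA per cell cannot be told apart.

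The nucleolus is where RNA polymerase I transcribes ribosomal RNA and where the first assembly of both ribosomal subunits takes place. Small nucleolar RNAs (snoRNAs) guide chemical marks onto the new ribosomal RNA. Box C/D snoRNAs work with a methyltransferase and its core partners, and box H/ACA snoRNAs with a pseudouridine synthase and its core partners. Assembly factors, GTPases and RNA helicases then fold, cut and export the precursor particles. In flies, Myc is known as an activator of many of these genes and of ribosomal RNA synthesis in growing larval tissues, whereas the neurons of an adult head no longer divide.

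Libraries held 17448199 to 24680283 counts. Control replicate 2 stood apart, with 23.9% of its counts from the mitochondrial large ribosomal RNA (mt:lrRNA) against 4.58% to 9% in the other 7, and its TMM scaling factor was 0.651 against 0.940 to 1.15. Where leaving it out moved a value or a call of the 10 genes, the value without it is given beside the result. The target itself was lower in the knockdown. ND-75 (chromosome X, 8248651 to 8251687) was at 578, 562, 680 and 684 TMM-scaled CPM, the unit of every level below unless another is named, in Control and at 316, 313, 282 and 312 CPM in ND-75 KD, a log2 fold change of -1.03 (SE 0.11, adjusted p = 1.48e-04, edgeR quasi-likelihood test). Genes were called at a Benjamini-Hochberg adjusted p under 0.05 in that test, with p values adjusted over all 9986 genes, and every fold change is ND-75 KD over Control.

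Of the 10 nucleolar genes, 1 was called higher (pit) and 1 was called lower (Fib) in ND-75 KD heads, and 8 were not called. Among all tested genes 14.3% were called higher and 18.9% were called lower, so the count for the 10 genes is not above that background. Their log2 fold changes ran from -0.60 to 0.34 with a median of -0.17, beside a median of -0.01 for all tested genes, and 6 of the 10 were below 0, as were 51.2% of all tested genes. The lowest count in any library was 197 reads and the highest 1012. At an unadjusted p under 0.05 in the edgeR test, 2 were higher and 3 lower, beside 19.9% and 24.7% of all tested genes.

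**Figure D1:**
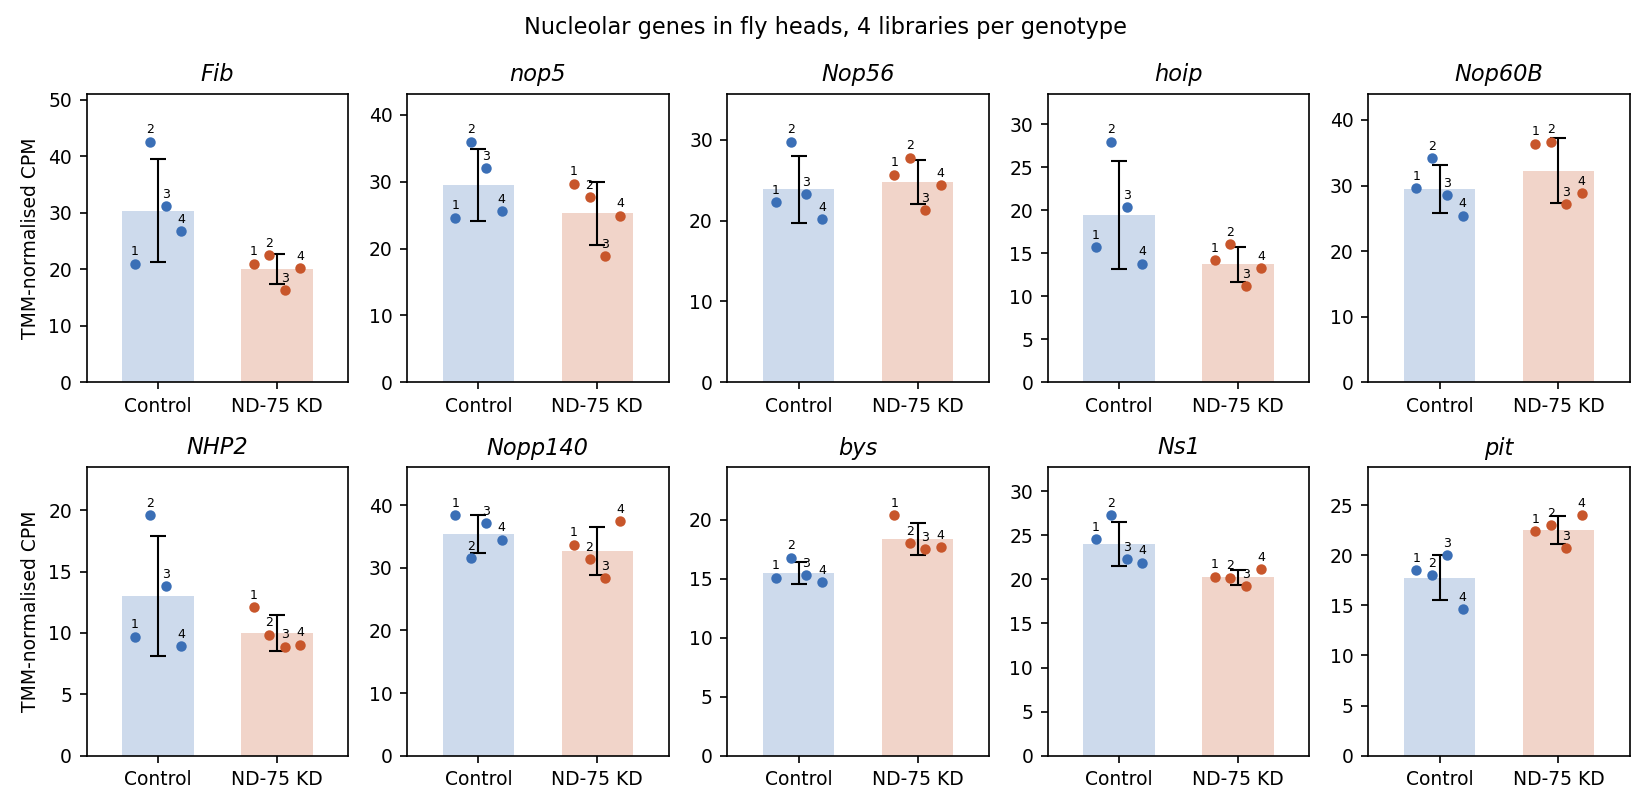
TMM-scaled CPM of the 10 nucleolar genes in each library. Points are libraries with their replicate number, bars are group means and error bars are SD (n = 4). Control replicate 2 is the highest Control library in 8 panels and ND-75 KD replicate 3 the lowest ND-75 KD library in all 10. The groups are apart only for bys, Ns1 and pit.

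The box C/D core has 4 proteins, and the methyltransferase was the member that was called. Fib (fibrillarin, chromosome 2R, 23072909 to 23074725, minus strand, 3 exons) transfers the methyl group to the ribose. It was at 21.0, 42.6, 31.2 and 26.7 CPM in Control and at 21.0, 22.5, 16.3 and 20.2 CPM in ND-75 KD. The groups touched, because Control replicate 1 was as low as ND-75 KD replicate 1 and below replicate 2. Mean Fib was 30.4 ± 9.14 CPM in Control and 20.0 ± 2.64 CPM in ND-75 KD (SD, n = 4), a log2 fold change of -0.60 (SE 0.20, 95% interval -1.03 to -0.17, adjusted p = 0.0378 by edgeR). On the linear scale Fib fell by 33.9%. Without Control replicate 2 the Fib change was -0.39 and the call was lost (adjusted p = 0.0594 by edgeR). It was also lost without Control replicate 3 (-0.55) and without ND-75 KD replicate 1 (-0.62), 2 (-0.66), 3 (-0.51) or 4 (-0.60), and it was kept without Control replicate 1 (-0.70) or 4 (-0.66).

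The other 3 box C/D proteins were not called. nop5, the fly homologue of yeast Nop58, and Nop56 form the pair of scaffold proteins around which the particle is built. nop5 (chromosome 2L, 6916753 to 6918743, minus strand, 2 exons) was at 24.6, 36, 32 and 25.6 CPM in Control and at 29.7, 27.7, 18.9 and 24.9 CPM in ND-75 KD. The libraries overlapped, and the log2 fold change was -0.22 (SE 0.16, 95% interval -0.58 to 0.14, adjusted p = 0.322 by edgeR). It was -0.11 without Control replicate 2, -0.14 without Control replicate 3 and -0.10 without ND-75 KD replicate 3, and not called in any leave-one-out fit. Nop56 (chromosome 3R, 22419095 to 22421068, minus strand, 3 exons) was at 22.3, 29.8, 23.3 and 20.2 CPM in Control and at 25.7, 27.8, 21.3 and 24.4 CPM in ND-75 KD. Its means were 23.9 ± 4.14 and 24.8 ± 2.72 CPM, and its log2 fold change was the smallest of the 10 in size at 0.06 (SE 0.14, 95% interval -0.24 to 0.36, adjusted p = 0.771 by edgeR). Leaving out 1 library gave Nop56 changes from -0.02 (without Control replicate 4) to 0.18 (without Control replicate 2), none of them called.

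hoip (hoi-polloi, chromosome 2L, 9699791 to 9700459, plus strand, 2 exons) is the homologue of Snu13, which binds the kink-turn of the snoRNA and is also a protein of the spliceosome. It was at 15.7, 28.0, 20.4 and 13.8 CPM in Control and at 14.2, 16.1, 11.2 and 13.3 CPM in ND-75 KD. The high values were those of Control replicates 2 and 3, and Control replicates 1 and 4 lay within the range of the knockdown. Mean hoip was 19.5 ± 6.35 and 13.7 ± 2.01 CPM, and the log2 fold change was -0.50 (SE 0.21, 95% interval -0.97 to -0.04, adjusted p = 0.0868 by edgeR). Without Control replicate 4 hoip was called lower (-0.64, adjusted p = 0.0287), and without Control replicate 2 the change was -0.28 and not called.

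Of the box H/ACA core, Nop60B and NHP2 are among the 10 genes, and neither was called. Nop60B (chromosome 2R, 24174877 to 24186343, plus strand, 5 annotated transcripts with 6 to 13 exons) is the fly dyskerin, the pseudouridine synthase. It was at 29.6, 34.2, 28.5 and 25.4 CPM in Control and at 36.4, 36.7, 27.2 and 28.8 CPM in ND-75 KD. ND-75 KD replicates 1 and 2 were above every Control library and replicates 3 and 4 were within the Control range. The log2 fold change was 0.13 (SE 0.13, 95% interval -0.16 to 0.43, adjusted p = 0.458 by edgeR). It was 0.21 without Control replicate 2, 0.21 when ND-75 KD replicate 3 was dropped and 0.07 when Control replicate 4 or either of the first ND-75 KD replicates (1 and 2) was dropped, and not called in any of these fits. NHP2 (chromosome 3L, 14801328 to 14802168, minus strand, 2 exons), a core protein related in fold to hoip, was at 9.70, 19.6, 13.8 and 8.94 CPM in Control and at 12.1, 9.85, 8.89 and 9.05 CPM in ND-75 KD. Its log2 fold change was -0.38 (SE 0.23, 95% interval -0.89 to 0.14, adjusted p = 0.235 by edgeR), and without Control replicate 2, its highest library, it was -0.12. Nopp140 (chromosome 3L, 21832774 to 21836685, plus strand, 3 to 4 exons), a phosphoprotein chaperone that binds both kinds of snoRNA particle, was at 38.4, 31.5, 37.1 and 34.5 CPM in Control and at 33.7, 31.4, 28.3 and 37.4 CPM in ND-75 KD. Control replicate 2 was its lowest Control library, the only case of the 10, and its log2 fold change was -0.12 (SE 0.11, 95% interval -0.36 to 0.13, adjusted p = 0.443 by edgeR). That of Nopp140 was -0.16 without Control replicate 2, -0.03 without Control replicate 1, -0.06 without Control replicate 3, -0.05 without ND-75 KD replicate 3 and -0.19 without ND-75 KD replicate 4, none called.

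The 3 remaining genes act on precursor particles rather than on snoRNAs, and these were the 3 whose groups did not overlap. Groups did not overlap, with the knockdown higher, for bys and pit, as for 17.2% of all tested genes, and with the knockdown lower for Ns1, as for 19% of them. pit (pitchoune, chromosome 3R, 22034298 to 22038925, plus strand, 5 to 6 exons) is a DEAD-box RNA helicase, the homologue of human DDX18. It was at 18.5, 18.0, 20.0 and 14.6 CPM in Control and at 22.4, 23.0, 20.7 and 24.0 CPM in ND-75 KD. The highest Control library and the lowest knockdown library were both replicate 3 and differed little, while the group means were 17.8 ± 2.27 and 22.5 ± 1.37 CPM (SD, n = 4). The log2 fold change of pit was 0.34 (SE 0.11, 95% interval 0.09 to 0.59, adjusted p = 0.0415 by edgeR), or 26.7% higher. The call was lost without Control replicate 4 (0.26), its lowest library, and without ND-75 KD replicate 1 (0.34), 2 (0.33), 3 (0.38) or 4 (0.31), and kept without Control replicate 1 (0.40), 2 (0.35) or 3 (0.44).

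bys (bystin, chromosome X, 7901880 to 7903643, plus strand, 5 exons), the homologue of the yeast small subunit factor Enp1, was at 15.1, 16.8, 15.3 and 14.7 CPM in Control and at 20.4, 18.0, 17.5 and 17.7 CPM in ND-75 KD. All 4 knockdown libraries were above all 4 Control libraries, and the means were 15.5 ± 0.932 and 18.4 ± 1.32 CPM. The log2 fold change of bys was 0.25 (SE 0.10, 95% interval 0.03 to 0.47, adjusted p = 0.0725 by edgeR), so it was not called. It was called in 7 of the 18 alternatives, among them DESeq2 (0.27, adjusted p = 0.0497) and the fit without Control replicate 2 (0.30, adjusted p = 0.0335 by edgeR). Ns1 (nucleostemin 1, chromosome 3R, 17070523 to 17072675, minus strand, 5 exons), a GTPase needed in flies for the release of large subunits from the nucleolus, was at 24.6, 27.3, 22.3 and 21.9 CPM in Control and at 20.3, 20.2, 19.2 and 21.2 CPM in ND-75 KD. All 4 knockdown libraries of Ns1 were below all 4 Control libraries, with the smallest SD of the 10 in ND-75 KD (20.2 ± 0.849 CPM). Its log2 fold change was -0.25 (SE 0.10, 95% interval -0.47 to -0.02, adjusted p = 0.0851 by edgeR), and it was called in 0 of the 18 alternatives (-0.18 without Control replicate 2).

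**Figure D2:**
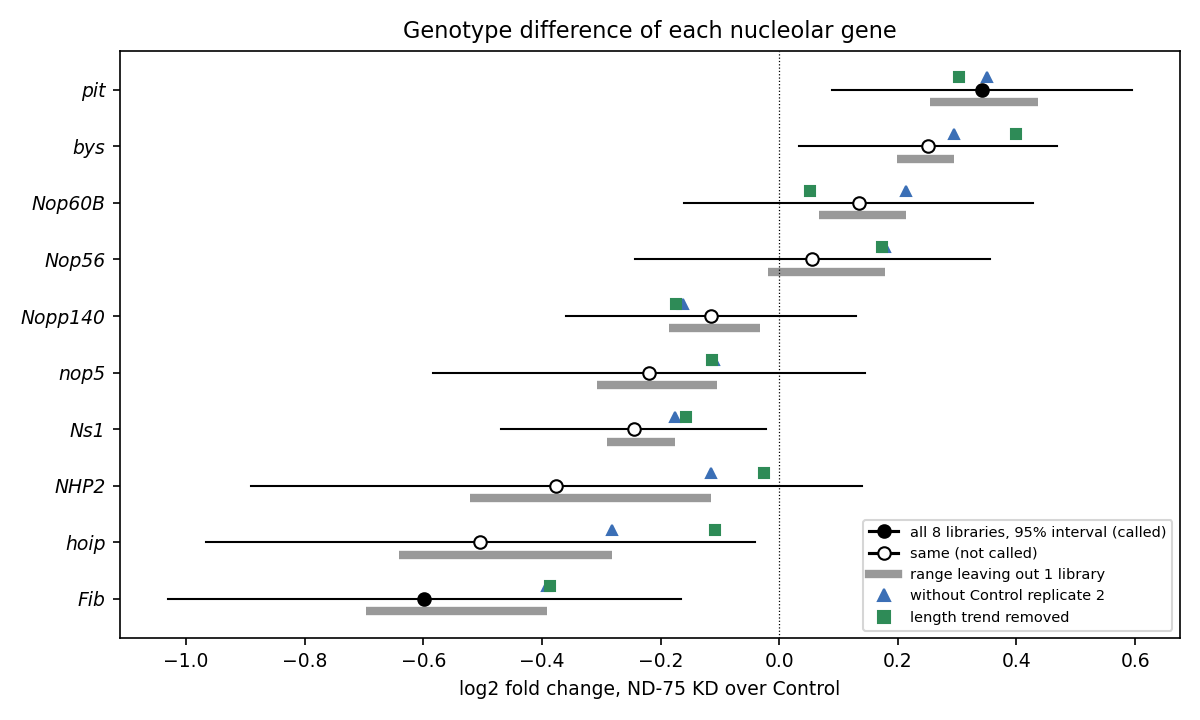
Log2 fold change (ND-75 KD over Control) of the 10 genes with its 95% interval. Filled circles were called, grey bars span the 8 fits that leave out 1 library, triangles leave out Control replicate 2 and squares have the trend on gene length removed. Without Control replicate 2 the 4 lowest estimates move towards 0, and only Nop56 has a grey bar that crosses 0 (-0.02 to 0.18).

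Much of the variation of the 10 genes lay between libraries of a genotype. Control replicate 2 was the highest Control library for 8 of the 10 genes, beside 36.9% of all tested genes, and Control replicate 4 the lowest for 7 of the 10, beside 27.8%. ND-75 KD replicate 3 was the lowest knockdown library for 10 of 10, beside 29.2% of all tested genes. The summed CPM of the 10 genes was 219, 284, 244 and 206 in Control and 236, 233, 190 and 221 in ND-75 KD. The summed levels of the genotypes overlapped, and the spread within a genotype was larger than the gap between them. These shares were looked up after the pattern was seen. The high share of mt:lrRNA in Control replicate 2 stood beside its high values, and its part in them was not tested. Without Control replicate 2 the median log2 fold change of the 10 genes was -0.11, and leaving out ND-75 KD replicate 3 instead gave -0.08.

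A ratio of a pair of genes within a library does not depend on how libraries are scaled to each other, and 3 such ratios were formed on the per-length scale (RPKM, CPM per kilobase of gene length). The ratio of the pseudouridine synthase to the methyltransferase, Nop60B over Fib, was 0.543, 0.310, 0.353 and 0.366 in Control and 0.668, 0.630, 0.643 and 0.551 in ND-75 KD. All 4 knockdown libraries lay above all 4 Control libraries, although Control replicate 1 came close to ND-75 KD replicate 4. The mean log2 ratio was 0.69 higher in the knockdown (exact two-sided permutation p = 0.0286, the smallest that 70 regroupings can give, and 0.0857 adjusted over the 3 ratios), and 0.59 to 0.86 higher with any 1 library left out. The test was added after the ranges were seen, and this pair includes Fib, the only 1 of the 10 genes that was called lower. The ratio of the box C/D scaffold proteins, nop5 over Nop56, was 1.06 to 1.32 in Control and 0.856 to 1.11 in ND-75 KD, a log2 difference of -0.29 (exact permutation p = 0.0571, adjusted 0.0857). The ratio of the related proteins NHP2 and hoip was 0.480 to 0.544 in Control and 0.477 to 0.660 in ND-75 KD, with ranges that overlapped (exact permutation p = 0.286). With 3 ratios and this smallest p, a single ratio with separate groups cannot reach an adjusted p under 0.05. This test therefore cannot show a difference in the Nop60B over Fib ratio at that level. Its unadjusted p only restates that the groups were separate.

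**Figure D3:**
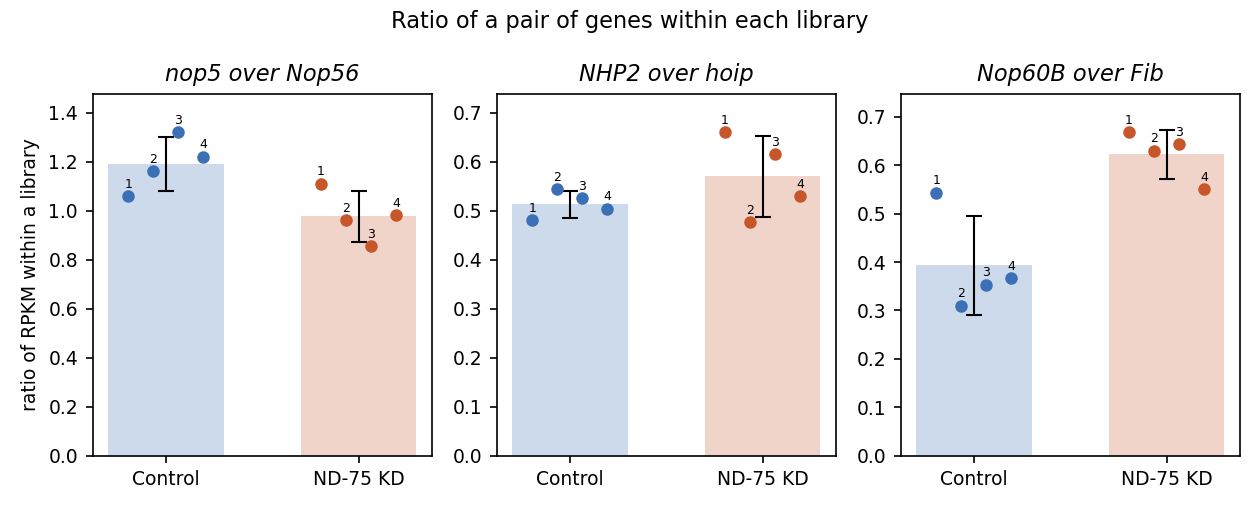
Ratio of RPKM of a pair of genes within each library, for nop5 over Nop56, NHP2 over hoip and Nop60B over Fib. Points are libraries with their replicate number, bars are group means and error bars are SD (n = 4). The groups are apart only for Nop60B over Fib (0.310 to 0.543 in Control, 0.551 to 0.668 in ND-75 KD).

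The short transcripts among the 10 were those with the lowest fold changes, and gene length moved with the fold change in all genes. The median log2 fold change was -0.37 in the shortest 10% of tested genes (up to 802 bases) and 0.23 in the longest 10% (5880 bases or more). hoip (607 bases) and NHP2 (781 bases) lie in the shortest 10%, and Fib has 1318 bases, whereas pit has 2958 and Nop60B 3412. With the trend on length removed in each library, the log2 fold change of hoip was -0.11 and that of NHP2 -0.03, neither called, and Fib was at -0.39 (adjusted p = 0.0623 by edgeR) and no longer called. pit was at 0.30 and no longer called (adjusted p = 0.0606), and bys (1518 bases) was at 0.40 and called higher (adjusted p = 0.00423 by edgeR). The median of the 10 genes was then -0.07. The Nop60B over Fib ratio compares a long with a short transcript. With the trend removed Nop60B was at 0.05 and Fib at -0.39, against 0.13 and -0.60 with it, so the fitted changes of this pair were closer to each other but remained in the same order.

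Per length, the 10 genes were expressed at middle levels in the head. In Control, hoip was highest at 32.1 ± 10.5 RPKM (SD, n = 4) and pit lowest at 6.02 ± 0.768 RPKM, and 78.8% and 35.2% of tested genes had lower levels than these. Between them, Fib was at 23.1 ± 6.93, NHP2 at 16.7 ± 6.28, nop5 at 16.3 ± 3.00 and Nop56 at 13.7 ± 2.37 RPKM. Ns1 was at 12.7 ± 1.33, Nopp140 at 10.9 ± 0.947, bys at 10.2 ± 0.614 and Nop60B at 8.62 ± 1.07 RPKM. Neighbours in this order had overlapping Control libraries, except that every library of Nop60B was above every library of pit. In ND-75 KD, hoip (22.5 RPKM) and Fib (15.2 RPKM) were again first and pit (7.62 RPKM) last, and bys (12.1 RPKM) stood above Ns1 (10.7 RPKM), the reverse of Control.

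**Figure D4:**
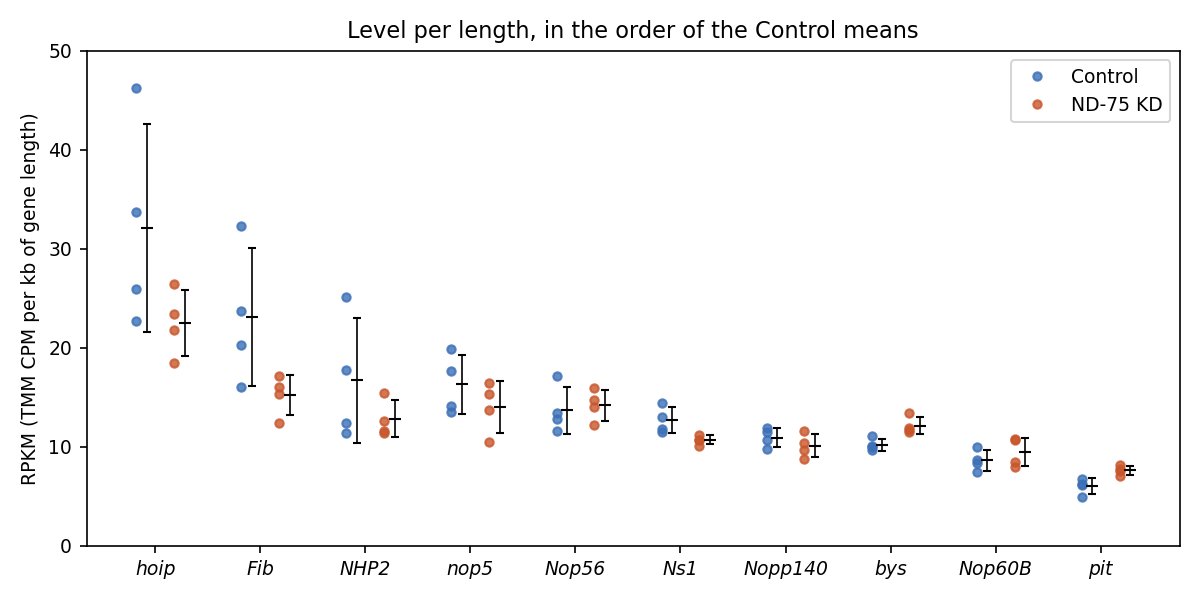
RPKM (TMM-scaled CPM per kilobase of gene length) of the 10 genes in the order of their Control means. Points are libraries and the lines beside them are mean ± SD (n = 4). Control means fall from 32.1 for hoip to 6.02 for pit, and most neighbours overlap.

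Several of the genes carry snoRNA genes themselves. The Ensembl 115 annotation places 1 snoRNA gene in an intron of Fib and 1 in an intron of nop5. It places 7 within Nop60B, 1 of them in an intron and 6 in exons of at least 1 transcript, and a small Cajal body RNA in an intron of pit. All 10 coordinate pairs in the table were identical to that annotation. The counting was not stated to use strand. In the table, the snoRNA gene inside Fib had 19 reads and the intronic one inside Nop60B had 3 reads over all 8 libraries, and neither was tested. nop5 lies within the span of x16, a splicing factor gene on the same strand, with 0 shared exon bases. x16 was at a mean of 35.7 CPM in Control and 30.7 CPM in ND-75 KD (log2 fold change -0.22, adjusted p = 0.171 by edgeR). Fadd, an adaptor of immune and death signalling, lies in an intron of pit and was at 3.32 and 2.73 CPM (-0.27, adjusted p = 0.437). P5CDh1, a proline catabolism enzyme, overlaps the end of Nopp140 by 21 exon bases on the opposite strand. It was at 452 and 470 CPM (0.06, adjusted p = 0.714), far above Nopp140, so reads in those 21 bases cannot be assigned without strand.

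The surrounding pathway was described with 9 lists of genes, of which 93 genes were tested, and no list was compared with another by a test. In these, 10 genes were called higher (10.8%) and 11 were called lower (11.8%), with a median log2 fold change of 0.02. Both shares are below those of all tested genes in this fit. Those shares, 14.3% higher and 18.9% lower, are the background for the main-fit counts of each list below. With the length trend removed, 18 of the 93 were called higher, a share above the 16.7% of all tested genes in that setting.

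Among 6 genes listed as partners of the snoRNA particles, 1 was called higher and 2 were called lower. CG4038, the homologue of GAR1 in the box H/ACA core, fell from 12.8 to 7.65 CPM (-0.74, SE 0.17, adjusted p = 0.00841 by edgeR) and was called in 18 of 18 alternatives, at -0.48 with the length trend removed. CG7637, the homologue of NOP10 and the last core protein of that particle, had a log2 fold change of 0.37 and was not called (adjusted p = 0.170). Of the box H/ACA core proteins, CG4038 was called lower and Nop60B, NHP2 and CG7637 were not called. Of the R2TP assembly complex, spag rose (0.37, adjusted p = 0.0491 by edgeR), whereas its ATPases rept (-0.13, adjusted p = 0.475) and pont (-0.07, adjusted p = 0.705) were not called. Nop17l, which was on the list by its name, fell (-0.39, adjusted p = 0.0264 by edgeR). The call of Nop17l was lost in 5 of 8 leave-one-out fits, those that dropped Control replicates 1 and 3 and ND-75 KD replicates 2, 3 and 4. Its change was -0.47 to -0.31 over the 8 fits. The call of spag held in 1 leave-one-out fit, without Control replicate 1 (0.31 to 0.53 over the 8 fits). Nop17l shares 260 exon bases with DNApol-zeta on the opposite strand.

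For RNA polymerase I, 2 of 9 genes were called higher (22.2%) and 1 was called lower (11.1%), beside 14.3% and 18.9% of all tested genes. RpI135, its second largest subunit, rose from 6.56 to 9.83 CPM (0.58, SE 0.14, adjusted p = 0.0109 by edgeR, called in 18 of 18 alternatives). Tif-IA, the initiation factor that couples the polymerase to growth signals, rose from 45.8 to 56.6 CPM (0.30, adjusted p = 0.0446 by edgeR). Its call held in 2 leave-one-out fits, without Control replicate 1 or 2 (0.24 to 0.38 over all leave-one-out fits). l(2)37Cg, a small subunit shared with RNA polymerase III, fell from 3.79 to 2.37 CPM (-0.66, adjusted p = 0.0447). The call of l(2)37Cg held in 1 leave-one-out fit, without Control replicate 4 (-0.76 to -0.44 over all leave-one-out fits). It was lost with the length trend removed (-0.32, adjusted p = 0.145 by edgeR). The gene shares exon bases with DCTN6-p27 and brat on the opposite strand.

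Factors of the small subunit, to which bys belongs, had 3 of 17 genes called higher (17.6%, near the 14.3% of all tested genes). The number called lower was 0, beside 18.9% of all tested genes, and the median was 0.18. Without Control replicate 1 the number higher was 6 and the median 0.37, and without any 1 of the ND-75 KD libraries the number was 2. At an unadjusted p under 0.05, by DESeq2 and by limma voom, the number lower was also 0. l(3)72Dn, the homologue of UTP4, rose from 4.94 to 8.51 CPM (0.78, SE 0.17, adjusted p = 0.00633 by edgeR). Mat89Ba, the homologue of NOL6, rose from 7.48 to 11 CPM (0.55, SE 0.13, adjusted p = 0.0113). Both were called in every leave-one-out fit. kz, a DEAH-box helicase, rose from 7.60 to 10.1 CPM (0.40, adjusted p = 0.0326), and its call was lost without any 1 of the 4 ND-75 KD libraries (0.35 to 0.51 over the leave-one-out fits) and with the length trend removed (0.30, adjusted p = 0.0881). Mat89Ba and kz share 105 and 188 exon bases with a gene on the opposite strand.

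Factors of the large subunit, to which Ns1 belongs, had 0 of 30 genes called higher, beside 14.3% of all tested genes. Of the 30, 6 were called lower, or 20%, near the 18.9% of all tested genes, and the median was -0.04. The number higher was 1 at an unadjusted p under 0.05, 0 by DESeq2, 0 by limma voom, 1 without Control replicate 2 and 3 with the length trend removed, where the median was 0.06. The number lower was 4 without Control replicate 3 or any of the knockdown replicates 2, 3 and 4. Non1, the homologue of the GTPase Nog1, fell from 439 to 200 CPM (-1.14, SE 0.13, adjusted p = 1.90e-04 by edgeR). Ip259, the homologue of Nsa2, fell from 176 to 109 CPM (-0.69, SE 0.09, adjusted p = 3.13e-04), and it shares 35 exon bases with RpS27A on the same strand. CG4364, the fly Pescadillo, fell from 254 to 170 CPM (-0.58, SE 0.10, adjusted p = 0.00157). These 3 were called in 18 of 18 alternatives (-1.10, -0.48 and -0.52 with the length trend removed), and in each the knockdown libraries were all below the Control libraries.

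Of 6 nucleolar helicases other than pit, 1 was called higher and 0 lower (0 also at an unadjusted p under 0.05, by DESeq2 and by limma voom). The number higher was 2 by limma voom, without Control replicate 2 and with the length trend removed. CG5589 rose from 3.82 to 5.28 CPM (0.46, adjusted p = 0.0339 by edgeR), and its call was lost in 4 of 8 leave-one-out fits, those that dropped ND-75 KD replicate 2, 3 or 4 or the last Control replicate (4) (0.42 to 0.57 over the leave-one-out fits). Of 5 other nucleolar proteins, 0 were called higher (0 also at an unadjusted p under 0.05, by DESeq2 and by limma voom, but 1 with the length trend removed) and 1 lower. Without Control replicate 4 the number lower was 2. This was Nlp, a nucleoplasmin, which fell from 46.6 to 32.4 CPM (-0.52, SE 0.12, adjusted p = 0.00977), was at -0.27 with the length trend removed (adjusted p = 0.0137) and not called in the test against a fold of 1.2 (adjusted p = 0.0513), and shares 77 exon bases with a gene on the opposite strand. Of 11 exosome genes, which trim the precursors, 0 were called higher (1 at an unadjusted p under 0.05, 1 by DESeq2, 1 by limma voom, 1 with the length trend removed and 1 without Control replicate 4) and 1 lower. Rrp4, a cap subunit of the exosome, fell from 11.9 to 5.88 CPM (-1.02, SE 0.22, adjusted p = 0.00579 by edgeR), and was at -0.79 with the length trend removed.

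The Myc network and the host transcripts of snoRNAs held the rest of the calls. Myc rose from 12.1 to 19.9 CPM (0.70, SE 0.14, adjusted p = 0.00423 by edgeR) and was called in 18 of 18 alternatives, at 0.46 with the length trend removed. Its partner Max (-0.05, adjusted p = 0.800) and the repressor Mnt (0.07, adjusted p = 0.589) were not called. Exons of Myc overlap those of CG12535 on the opposite strand by 3754 bases and a long noncoding RNA on the same strand by 1859 bases, and without strand the reads on the opposite strand cannot be told apart. Beside the rise of Myc, pit was called higher and Fib called lower, and the other 8 of the 10 genes were not called. Of 6 tested snoRNA host genes, 2 were called higher and 0 lower (0 also at an unadjusted p under 0.05, by DESeq2 and by limma voom). Without Control replicate 1 there was 1 called lower, and 3 were called higher without Control replicate 2 and with the length trend removed. Uhg1, whose introns hold box C/D snoRNAs of the U27, U31 and snR38 families, was at 4.46, 5.44, 5.94 and 6.92 CPM in Control and at 22.3, 21.4, 25.9 and 28.1 CPM in ND-75 KD (2.10, SE 0.15, adjusted p = 1.38e-05 by edgeR). Every knockdown library of Uhg1 was above every Control library. Uhg3 rose from 3.35 to 5.69 CPM (0.77, SE 0.17, adjusted p = 0.00671), and both hosts were called in 18 of 18 alternatives.

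**Figure D5:**
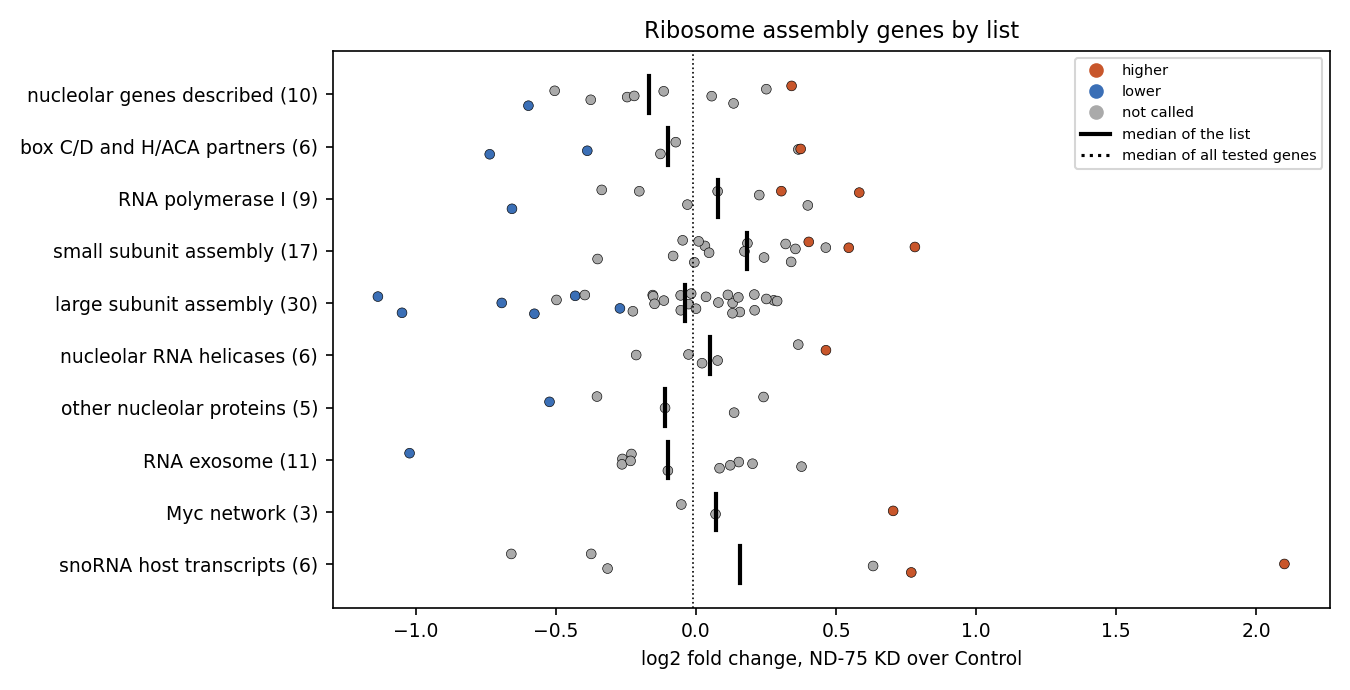
Log2 fold change (ND-75 KD over Control) of the 10 nucleolar genes and of the tested genes of 9 ribosome assembly lists, with the number of genes in parentheses. Points are genes, coloured by their call, thick bars are list medians and the dotted line is the median of all tested genes (-0.01). Of the small subunit genes 3 of 17 were called higher and of the large subunit genes 6 of 30 were called lower, beside 14.3% and 18.9% of all tested genes, and the difference between these lists was not tested.

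Some markers of several cell types also moved with the genotype, where 14.3% of all tested genes were called higher and 18.9% lower. Of 11 neuronal markers 7 were called higher and 0 lower, and their summed level was 3190 to 4410 CPM in Control and 4660 to 4990 CPM in ND-75 KD. Fat body markers had 4 of 6 called lower (4820 to 7760 against 2100 to 3030 CPM), hemocyte markers 5 of 5 (179 to 278 against 108 to 132 CPM), photoreceptor markers 5 of 10 (34500 to 50600 against 26600 to 32200 CPM) and glial markers 3 of 8 (2670 to 3380 against 2320 to 2630 CPM). The sums follow the most abundant markers, such as ninaE in photoreceptors (mean 19750 CPM in Control and 11460 CPM in ND-75 KD). Within these lists not all markers moved the same way. The photoreceptor markers norpA (0.27) and chp (0.23) and the glial markers moody (0.08) and Gli (0.10) were above 0 and not called. Muscle markers had 1 of 7 called in each direction (8190 to 12700 against 9030 to 10100 CPM). Of 10 neuroblast and cell division genes 7 had enough reads to be tested, and 2 were called higher and 0 lower. The 2 were PCNA (1.23, from 3.09 to 7.18 CPM) and CycB (1.35, from 0.521 to 1.36 CPM, a low level in both groups). The summed level of the list was 12.6 to 16.2 CPM in Control and 22.6 to 27.2 CPM in ND-75 KD. Germline markers were low in both groups (15.7 to 20.6 and 17.1 to 18.3 CPM) with 0 of 3 called. The part of these shifts in the values of the 10 nucleolar genes was not tested.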

How the data were processed

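Gene expression was measured in heads, with 4 libraries of each genotype. The authors cleaned paired reads with fastp, aligned them with HISAT2 to the Ensembl 102 genome and deposited raw read counts per gene from featureCounts, with versions and strand setting not given in the sources used here. Coordinates and gene lengths are those of the deposited table. Its 16 other columns of samples (counts scaled by size factors, and FPKM) and the authors' own fold changes and p values from DESeq2 were not used. The test was run in edgeR 4.0.16 under R 4.3.3 (filterByExpr by genotype with a minimum count of 10 and total of 15, TMM, glmQLFit, glmQLFTest, Benjamini-Hochberg over 9986 genes). SE is the log2 fold change over the square root of F. The biological coefficient of variation was 0.171, and depth was 17448199 to 24680283 counts. The test was checked on simulated data with 200 of 9986 genes changed, 50 at each fold. It recovered 8% of 1.25-fold, 42% of 1.5-fold, 82% of 2-fold and 100% of 4-fold changes, and called 4 unchanged genes. Fewer genes were changed there than were called here, so these shares need not hold for the 10 genes. No pair of replicates agreed within sampling noise.

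The members, lists and markers were chosen with earlier results of these data known, so their counts are not independent evidence. Named genes are all 10 members, from each list the 3 called genes of lowest adjusted p, Myc, Max, Mnt, CG4038 and CG7637, ND-75, and genes overlapping a member. PCNA, CycB, rept and pont were named after their values were seen. Mpp10, Ltv1 and Uhg7 were not matched and a U3 gene had too few reads, so they were not analysed here. Overlaps come from the Ensembl 115 annotation. No sequences are printed.

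The 18 alternatives were DESeq2 1.42.0, limma 3.58.1 voom with sample quality weights, scaling in edgeR by upper quartile or by DESeq2 size factors, a filter of 10 reads in each library, no filter, mitochondrially encoded genes left out, the trend on gene length removed in each library (loess, span 0.5), the replicate number as a block, a threshold fold of 1.2, and 8 fits that each drop 1 library.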

Additional observations from a re-analysis of the deposited data

How the results depend on the processing

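Of the 10 genes, those called higher numbered 2 (pit and bys) with upper quartile scaling, DESeq2, limma voom, at least 10 reads in every library and mitochondrially encoded genes left out. The all-gene share called higher was 16.5%, 17.2%, 20%, 16.5% and 16.4% in these settings, in that order, against 14.3% in the main fit. With no filter 0 of the 10 genes were called higher (9.7% of all tested genes). The number was also 0 with the replicate block (11.6%) and in the test against a fold of 1.2 (6.97%). Leaving out 1 library gave 0 to 2 called higher (9.19% to 17.1% of all tested genes). Those called lower numbered 2 with limma voom (Fib and hoip, beside 23.5% of all tested genes). They numbered 0 with the length trend removed (18.4%) and in the test against a fold of 1.2 (11.2%). Leaving out 1 library gave 0 to 2 called lower (12.9% to 19.7%), against 18.9% of all tested genes in the main fit. List genes called higher numbered 18 with the length trend removed, 6 with the replicate block and 5 in the test against a fold of 1.2, and 6 to 13 with 1 library left out, against 10. List genes called lower numbered 6 in the test against a fold of 1.2 and 7 to 13 with 1 library left out, against 11. Of the 21 list calls, 21 were kept by DESeq2 and by limma voom, 14 with the replicate block and 13 to 19 with 1 library left out. Nop56 changed sign in 2 leave-one-out fits, at -0.0183 without Control replicate 4 and -0.00315 without ND-75 KD replicate 2 (range -0.02 to 0.18), and the other 9 genes kept their sign in 18 of 18 alternatives. Fits with a library left out use fewer libraries, and the test against a fold of 1.2 asks for a larger change. The causes of the changes between settings were not tested.

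No pairing by replicate number was seen, since deviations of same-numbered libraries had correlations of -0.11 to 0.03. Whether same-numbered libraries were prepared together is not stated, and these correlations cannot settle it. The replicate block moved calls over all genes from 1429 higher and 1885 lower to 1154 and 1553, and of the 10 genes it ended the call of pit alone (0.35, adjusted p = 0.0915 by edgeR). All-gene calls were 696 higher and 1121 lower in the test against a fold of 1.2 and 931 and 1308 without ND-75 KD replicate 3. Depth gave 197 to 1012 reads per library for each of the 10 genes, and their fold changes had SEs of 0.10 to 0.23 on the log2 scale. Changes larger than these SEs also went uncalled, as for hoip (-0.50) and NHP2 (-0.38). A gene that was not called is therefore not shown to be unchanged.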
